A study of Mus musculus with 4 samples.

Results

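The Wnt and Notch signaling genes of HT-22 cells were examined in RNA sequencing of cells with induced Pja2 and of control cells. Members were chosen by gene symbol, as the Wnt, Frizzled, Dkk, Sfrp, R-spondin, Notch, Dll, Jag, Hes and Hey families together with Lrp5, Lrp6, Axin1, Axin2, Ctnnb1, Lef1, Tcf7, Tcf7l1, Tcf7l2, Lgr4, Lgr5, Znrf3, Rbpj and Nrarp. This rule matched 50 of the 24689 genes of the deposited table. HT-22 is an immortalized line of mouse hippocampal neuronal cells. Cells labelled Induced Pja2 gave 2 libraries, titled Pja2-pb, and control cells labelled uninduced gave 2 libraries, titled WT. All cells were at passages 21 to 24, and the labels give neither the inducing agent nor the promoter, nor whether both groups came from 1 line or clone. Pja2 is an E3 ubiquitin ligase of the RING type, and the series title asks about its action through the ATP receptors P2rx3 and P2rx7.

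In canonical Wnt signaling, a secreted Wnt ligand bridges a Frizzled receptor and Lrp5 or Lrp6, which stops the Axin and Apc complex from marking beta-catenin for destruction, so that beta-catenin enters the nucleus and acts with TCF factors. In Notch signaling, a Jagged or Delta ligand on a neighbouring cell triggers cleavage of the Notch receptor, whose intracellular part joins Rbpj and turns on genes such as Hes1 and Hey1. In the hippocampus both pathways are known for keeping neural stem cells and for timing the formation of neurons.

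The libraries held 30080376 and 35262653 reads in the Pja2-induced cells, against 25787452 and 31010351 in the controls. Pja2 itself had 54830 and 54244 normalized reads in the induced cells, against 6167 and 5881 in the controls, and rose 9.05-fold. A normalized read is a read count divided by the authors' scaling factor for the library, and CPM scales reads by the library's total, 1 CPM being 25.8 to 35.3 reads. Marker genes gave a mixed picture of the neuronal label. Of the 9 neuronal markers analysed, 3 reached a mean of 1 CPM, namely Dlg4 (60.8 CPM), Tubb3 (20.2) and Camk2a (2.06). Syt1 had 0 reads in 3 of the 4 libraries, and the progenitor marker Nes lay under 1 CPM. All 8 fibroblast and mesenchyme markers reached 1 CPM, from Dcn at 18.2 to the collagen gene Col1a2 at 5406. So did 2 of 4 astrocyte, 2 of 6 microglia and 1 of 2 oligodendrocyte markers analysed, led by Slc1a3 (107 CPM) and Tmem119 (55.5). Reaching 1 CPM thus does not by itself mark a cell type. The fibroblast markers summed to 320436 and 320995 normalized reads in the induced cells, against 376239 and 328067 in the controls. Of the 8, 2 (Col3a1 and Dcn) fell, against 1.34% of all tested genes. The part of these markers in the Wnt and Notch values was not tested. In bulk RNA, fewer cells of a type and less RNA per cell cannot be told apart.

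The beta-catenin gene was the most abundant member per length of exon. Genes for transducers and several receptors of both pathways stood at the top, while most of the Wnt ligands analysed were scarce. On the scale of mean normalized reads per kilobase of exon, Ctnnb1 had 5027 in the induced cells and 4397 in the controls. Rbpj, the DNA-binding partner of Notch, had 885 in the induced cells and 867 in the controls, and Axin1, the scaffold of the destruction complex, had 822 and 826. Notch2 had 777 in the induced cells and 581 in the controls, far above Notch4 (43.5 and 23.6), Notch1 (3.97 and 2.89) and Notch3 (0.794 and 2.06). Among the Wnt receptors, the order in the controls was Fzd2, Lrp6 and Fzd7, with 760, 623 and 534 in the induced cells and 707, 632 and 421 in the controls. Wnt5a, a ligand best known for signaling without beta-catenin, was the leading ligand at 140 in the induced cells and 145 in the controls, and Wnt9a came next at 31.6 and 35.3. Lgr4, a receptor for R-spondins, had 371 in the induced cells and 358 in the controls.

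**Figure D1:**
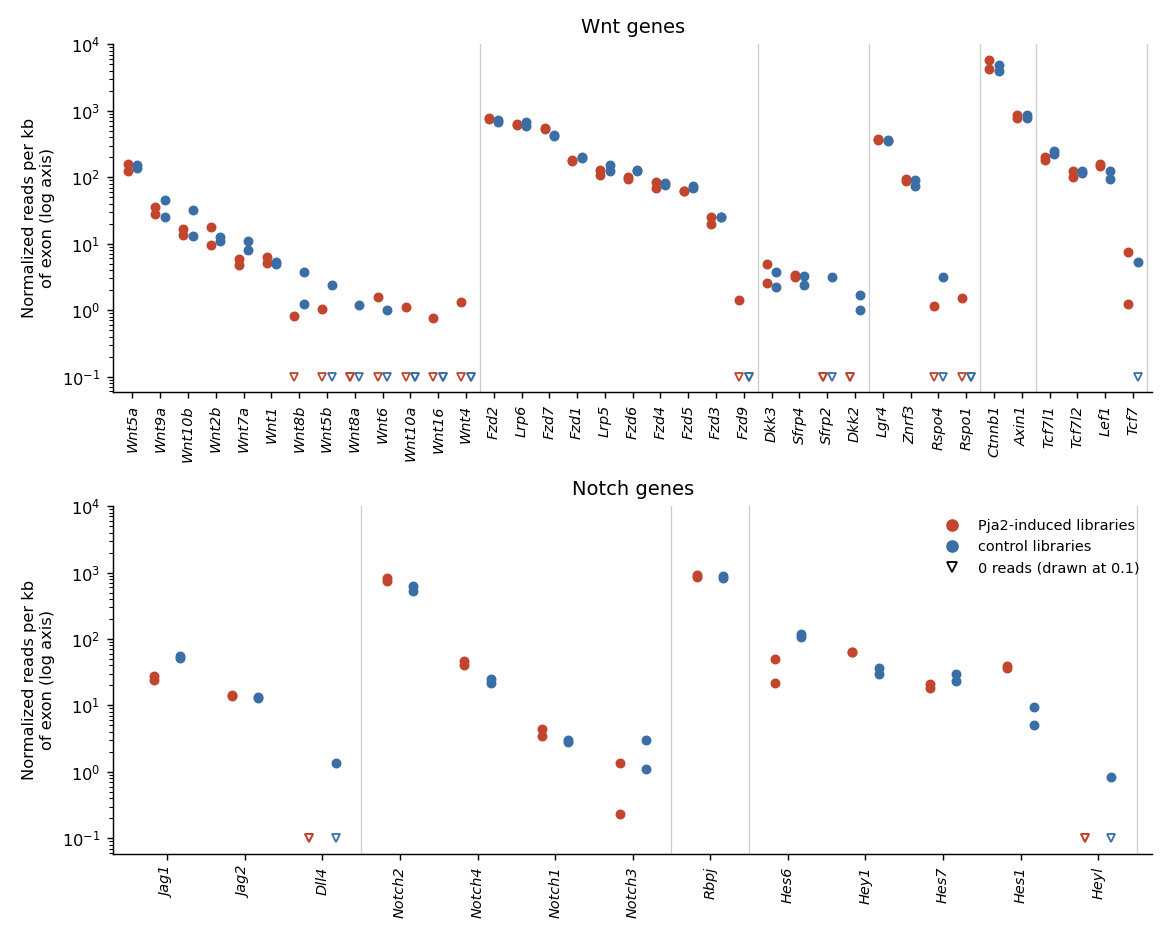
Levels of all 50 Wnt and Notch genes, as normalized reads per kilobase of exon on a log axis. Each filled point is 1 library, with Pja2-induced libraries left of controls; open triangles drawn at 0.1 are libraries with 0 reads, and vertical lines part the role classes. Ctnnb1, Rbpj, Axin1 and Notch2 lie at the top, and most Wnt ligands lie at or near 0.

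Members were tested where their mean was 1 CPM or more, which held for 29 of the 50. The other 21 held between 2 and 124 reads over all libraries, and 15 of them had at least 1 library at 0. They were the ligands Wnt1, Wnt4, Wnt5b, Wnt6, Wnt7a, Wnt8a, Wnt8b, Wnt10a and Wnt16, the receptor Fzd9, the secreted antagonists Dkk2, Dkk3, Sfrp2 and Sfrp4, the R-spondins Rspo1 and Rspo4, the TCF factor Tcf7, the receptors Notch1 and Notch3, the Notch ligand Dll4, and Heyl. All 4 secreted antagonists of Wnt among the 50 members thus lay under the filter. The highest was Sfrp4, with 13 and 14 reads in the induced cells and 8 and 13 in the controls. Dkk2, an Lrp6 antagonist, had 0 reads in both induced libraries and 3 and 6 in the controls, where a count of 0 allows up to 3 reads. Notch1 lay just under the filter at 0.997 CPM, with 30 and 46 reads in the induced cells and 21 and 27 in the controls. Hes1 lay just above it at 1.01 CPM. Tcf7, a TCF factor, had 3 and 21 reads in the induced cells and 0 and 13 in the controls, and Heyl, a Hey relative, had 0 in both induced libraries and 3 and 0 in the controls. Tested without the filter, 0 of these 21 members passed an adjusted p of 0.05 by limma, and 1 (Dkk2) had an unadjusted p under 0.05 (adjusted p = 0.196). Further genes that the rule also names were not analysed here. Among them were Axin2, Lgr5, Nrarp, Hes5, Hey2, Dll1 and Fzd8. Others were the antagonists Dkk1, Dkk4, Sfrp1 and Sfrp5, the R-spondin Rspo3, and ligands such as Wnt3a, Wnt7b and Wnt11.

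Differences were tested with limma on the log2 values over all 13276 genes that passed the filter, and an adjusted p is Benjamini-Hochberg over these genes. Jag1 was the 1 member of the 29 that passed an adjusted p of 0.05, which is 3.45% of them, against 3.42% of all tested genes. By limma 0 rose, against 2.08% of all tested genes, and 1 fell, against 1.34%, while limma voom on whole reads called 1 higher (Hes1) and 1 lower. The share called among the members was thus near the background. With an unadjusted p under 0.05 there were 10 of 29 members, 6 higher and 4 lower, against 19.1% of all tested genes. The induced and control libraries did not overlap for 17 members, against 51.3% of all tested genes. A log2 fold change of 0.5 or more in size was seen in 5 members, all of the Notch side, against 9.33% of all tested genes. Whether the Notch and Wnt sides differ was not tested. For the 29, the median log2 fold change was -0.02, and for all tested genes it was 0.00. Hes1 passed the filter through the induced cells alone, so these counts over tested members support nothing about it.

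**Figure D2:**
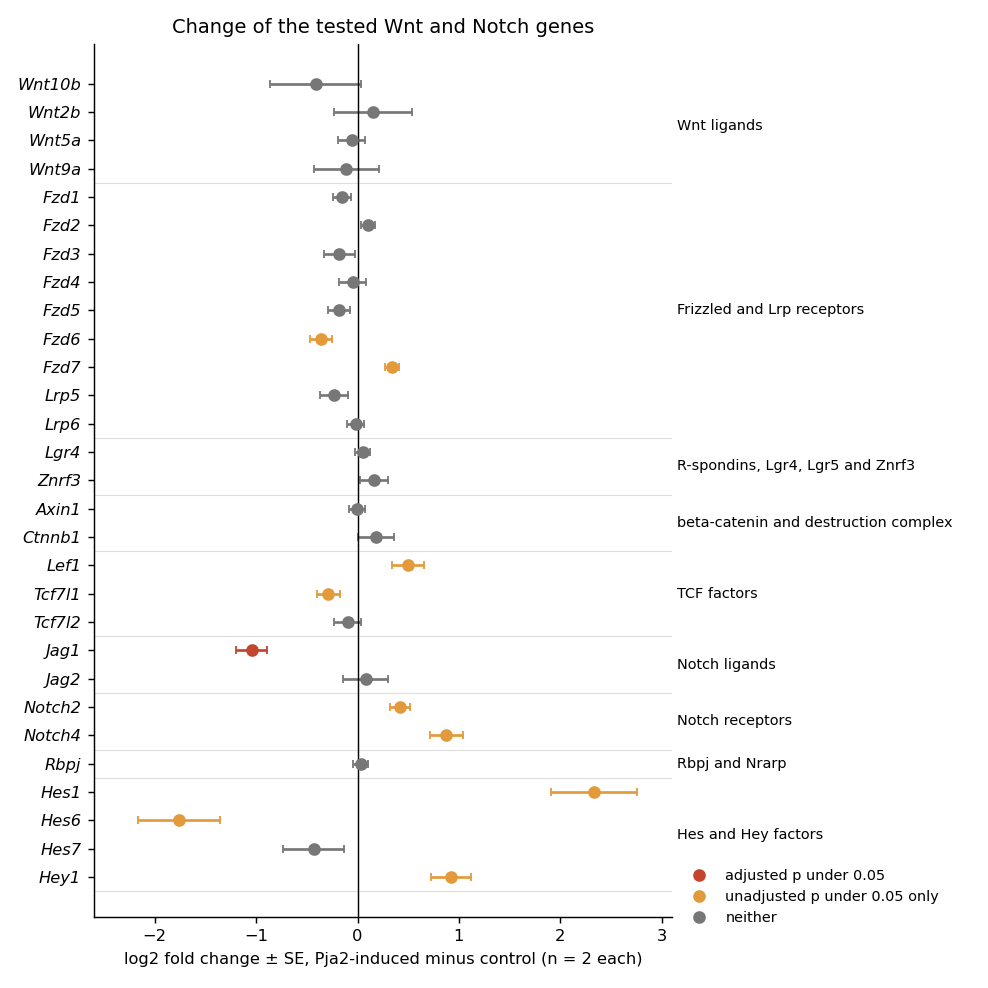
Log2 fold change of the 29 tested members, Pja2-induced minus control, with its standard error (n = 2 each), grouped by role. Jag1 alone is past an adjusted p of 0.05, and the differences of Wnt genes are smaller in size than 0.5, Lef1 lying just under it, whereas Hes1, Hes6, Hey1, Notch4 and Jag1 exceed it.

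On the Wnt side, 0 of 20 tested members passed the adjusted threshold by limma, against 3.42% of all tested genes. With an unadjusted p under 0.05 there were 4, or 20.0%, against 19.1% of all tested genes, which is near the background. Limma voom on whole reads called 0 as well. The log2 fold change largest in size was that of Lef1, just under 0.5. The ligand Wnt5a had 863 and 1104 normalized reads in the induced cells, against 976 and 1059 in the controls. Its groups overlapped, and its log2 fold change was -0.06 (SE 0.14, adjusted p = 0.853). Wnt9a had 117 and 92.7 in the induced cells, against 84.3 and 151 in the controls, which overlapped too (adjusted p = 0.882). The other tested ligands, Wnt2b and Wnt10b, had adjusted p-values of 0.863 and 0.668, and all 4 ligands overlapped between groups.

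Among the 9 tested Frizzled and Lrp genes, Fzd7 and Fzd6 differed most and in opposite directions. Fzd7, a receptor of canonical Wnt signaling, had 2463 and 2374 normalized reads in the induced cells, against 1954 and 1866 in the controls. Both induced libraries lay above both controls, with a log2 fold change of 0.34 (SE 0.07) that did not pass (adjusted p = 0.0687). Fzd6, known for its part in planar cell polarity, had 441 and 412 in the induced cells, against 558 and 537 in the controls. Both induced libraries lay below both controls (log2 fold change -0.36, SE 0.11, adjusted p = 0.159), and the exons of Fzd6 overlap those of Gm26704. Fzd2, the most abundant receptor per length, had 2811 and 2760 in the induced cells, against 2512 and 2669 in the controls (adjusted p = 0.465). The co-receptor gene Lrp6 had 5893 and 5776 in the induced cells, against 6360 and 5482 in the controls, with overlap between groups (adjusted p = 0.932). Fzd1, Fzd3, Fzd4, Fzd5 and Lrp5 had log2 fold changes from -0.24 to -0.04, and their adjusted p-values were 0.417 or more.

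Genes inside the cell and at the R-spondin receptors differed by less. Ctnnb1, which encodes beta-catenin, had 21238 and 15187 normalized reads in the induced cells, against 17692 and 14171 in the controls. The groups overlapped, and the libraries of each group lay far apart (adjusted p = 0.630), and its exons overlap those of Ulk4 and Mir7090. Axin1 had 2970 and 3239 in the induced cells, against 3242 and 2994 in the controls (adjusted p = 0.973). Lgr4 had 1928 and 1829 in the induced cells and 1820 and 1803 in the controls. Znrf3, a ligase that removes Frizzled receptors from the surface, had 698 and 748 in the induced cells and 575 and 729 in the controls. Neither passed (adjusted p = 0.743 and 0.584).

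The TCF factors did not move together. Lef1, known mainly as an activator, had 560 and 511 normalized reads in the induced cells, against 430 and 334 in the controls. Both induced libraries were above both controls (log2 fold change 0.50, SE 0.16, adjusted p = 0.171). Tcf7l1, known mainly as a repressor, had 623 and 568 in the induced cells, against 775 and 680 in the controls, both induced libraries being the lower ones (log2 fold change -0.29, SE 0.11, adjusted p = 0.257). Tcf7l2 had 452 and 554 in the induced cells, against 522 and 550 in the controls, and overlapped (adjusted p = 0.737). The exons of Lef1 and Tcf7l1 each overlap an antisense gene (Gm43352 and Gm15401), and the library kit does not mark the strand.

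On the Notch side, 1 of 9 tested members passed the adjusted threshold by limma, or 11.1%, against 3.42% of all tested genes. With an unadjusted p under 0.05 there were 6, or 66.7%, against 19.1% of all tested genes. The groups did not overlap for 8, against 51.3% of all tested genes. These counts include Hes1, which passed the filter through the induced cells alone, and nothing particular to the Notch side is drawn from them. Jag1, which encodes a ligand of Notch receptors, fell to 137 and 155 normalized reads in the induced cells, against 311 and 292 in the controls. The groups were 146 ± 12.6 and 301 ± 13.4 (SD, n = 2 each), a level 2.06-fold lower in the induced cells, and did not overlap. The log2 fold change of Jag1 (ENSMUSG00000027276, chromosome 2) was -1.04 (SE 0.15, adjusted p = 0.0288). Without any 1 of the 4 libraries the call ended (adjusted p from 0.0652 to 0.0945), while the log2 fold change stayed between -1.13 and -0.95. It also ended without the expression filter (adjusted p = 0.0618). Jag2, the other tested ligand, had 70.7 and 72.3 in the induced cells, against 66.6 and 68.5 in the controls (log2 fold change 0.08, SE 0.22, adjusted p = 0.873).

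Both tested Notch receptors were higher in the induced cells by size, and neither passed. Notch2 (ENSMUSG00000027878, chromosome 3) had 7744 and 8571 normalized reads in the induced cells, against 6596 and 5601 in the controls. Both induced libraries lay above both controls, with a log2 fold change of 0.42 (SE 0.10, adjusted p = 0.0937). Notch4 (ENSMUSG00000015468, chromosome 17), a receptor best known from blood vessel endothelium, had 265 and 308 in the induced cells, against 167 and 144 in the controls. The induced libraries were both the higher ones, 1.84-fold by means, and the log2 fold change was 0.88 (SE 0.17, adjusted p = 0.0550). Of the 4 endothelial markers analysed (Pecam1, Cdh5, Kdr and Tek), 0 reached 1 CPM. They summed to 22.8 and 15.8 normalized reads in the induced cells, against 31.4 and 25.3 in the controls. Kdr had 0 and 3 reads in the induced cells and 0 in both controls. The exons of Notch2 overlap those of Gm42820.

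Rbpj had 6326 and 5964 normalized reads in the induced cells, against 6265 and 5775 in the controls, with a log2 fold change of 0.03 (SE 0.07, adjusted p = 0.855). The groups overlapped.

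Hes and Hey genes encode basic helix-loop-helix factors, most of them repressors, and the 4 tested members split into 2 higher and 2 lower in the induced cells. Hes1 (ENSMUSG00000022528, chromosome 16), the best-known direct target of Notch, had 57.6 and 52.9 normalized reads in the induced cells, against 13.8 and 7.37 in the controls. These values stood for 53 and 57 reads in the induced cells and 11 and 7 in the controls, with no overlap. The means were 5.21-fold apart. From the summed reads the fold was 5.34, with a 95% exact binomial interval of 3.22 to 9.34 that covers counting error only. The log2 fold change was 2.33 (SE 0.43) and fell just short of the threshold (adjusted p = 0.0506), and Hes1 reached a mean of 1 CPM only in the induced cells. Leaving out 1 library gave 1.92 to 2.75 (adjusted p from 0.0501 to 0.174).

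Hey1 (ENSMUSG00000040289, chromosome 3), another Notch target, had 154 and 152 normalized reads in the induced cells, against 72.9 and 88.5 in the controls. Both induced libraries were higher, 1.90-fold by means (log2 fold change 0.92, SE 0.20, adjusted p = 0.0739). Hes6 (ENSMUSG00000067071, chromosome 1), which in neural precursors is known to oppose Hes1 and promote differentiation, had 66.3 and 28.7 in the induced cells, against 145 and 157 in the controls. Both induced libraries were lower, 3.17-fold by means, but differed from each other by more than the controls did (log2 fold change -1.76, SE 0.40, adjusted p = 0.0890). Without induced replicate 1, the log2 fold change of Hes6 was -2.35 and passed (adjusted p = 0.0160), while without induced replicate 2 it was -1.17 (adjusted p = 0.112), and adjusted p reached 0.196 without a control library. Hes7, a gene of the somite segmentation clock, had 32.6 and 38.02 in the induced cells, against 42.8 and 53.7 in the controls (adjusted p = 0.485). The induced libraries of Hes7 were the lower ones, and its exons overlap those of 9130213A22Rik.

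**Figure D3:**
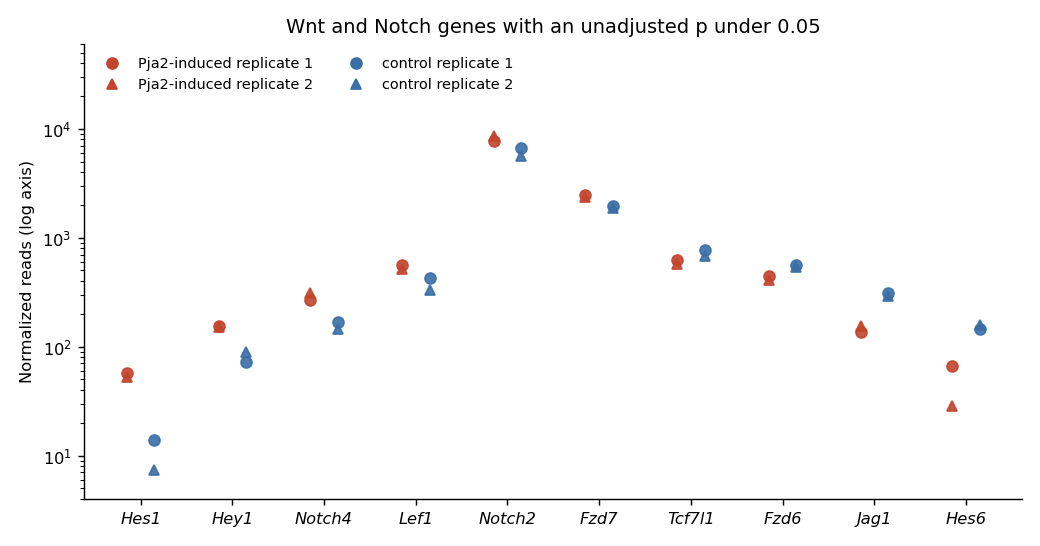
Normalized reads in each library, on a log axis, of the 10 members with an unadjusted p under 0.05, ordered from the highest to the lowest log2 fold change. Circles are replicate 1 and triangles replicate 2, with Pja2-induced libraries left of controls. The groups do not overlap for any of the 10, against 51.3% of all tested genes without overlap. The 10 were picked by p from these same libraries, so that their lack of overlap supports nothing further. Hes1 and Hes6 differ most between groups.

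Chromosome 16, which carries Hes1, stood apart in these cells. Over its 403 tested genes the median log2 fold change was 0.31, against -0.00 for the tested genes of all other chromosomes. Of the 403, 339 lay above 0, against 6691 of all 13276 tested genes. On this chromosome 85 rose and 6 fell, so that 22.6% were called, against 3.42% of all tested genes. The shift was uneven along the chromosome. From Hspa13, at rank 327 in gene order, to the end, small values of both signs were common, such as 0.11 for App, 0.12 for Sod1 and -0.02 for Ttc3. Larger values occurred there too. Adamts1 (log2 fold change -1.05) and Adamts5 (-1.20) fell by limma (adjusted p = 0.00698 and 0.0158). The 10 tested genes on each side of Hes1 had a median of 0.29, and the highest of these 20 was 0.78, below the 2.33 of Hes1. The part of the chromosome's shift in the value of Hes1 was not tested. No other tested member lies on chromosome 16, and the neighbours of Jag1 on chromosome 2 had a median of 0.01.

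**Figure D4:**
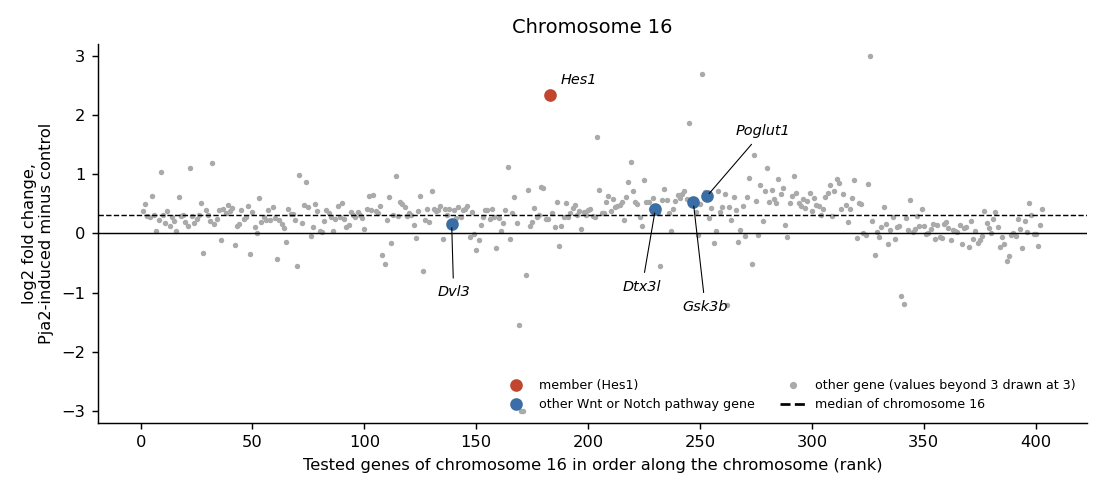
Log2 fold change, Pja2-induced minus control, of the 403 tested genes of chromosome 16 in their order along the chromosome. Hes1 at 2.33 lies far above the dashed median of 0.31, while Gsk3b, Poglut1, Dtx3l and Dvl3 lie among their neighbours.

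Promoter sequences are shown for 4 members with an unadjusted p under 0.05, as the starts of a ligand, a receptor, a Hes factor and a TCF factor. They are RefSeq windows of build GRCm38.p6, from 250 bases before to 50 after the gene start, read along the gene's strand. Of the 50 members, 35 had such a window. Capitals mark the letters TGGGAA, the core that Rbpj binds, or CTTTGA, the core that TCF factors bind, on either strand. Jag1 lies at chr2:137116471-137116770 (minus strand), Notch4 at chr17:34564045-34564344 (plus), Hes6 at chr1:91413989-91414288 (minus), and the first listed start of Lef1 at chr3:131110047-131110346 (plus).
Jag1: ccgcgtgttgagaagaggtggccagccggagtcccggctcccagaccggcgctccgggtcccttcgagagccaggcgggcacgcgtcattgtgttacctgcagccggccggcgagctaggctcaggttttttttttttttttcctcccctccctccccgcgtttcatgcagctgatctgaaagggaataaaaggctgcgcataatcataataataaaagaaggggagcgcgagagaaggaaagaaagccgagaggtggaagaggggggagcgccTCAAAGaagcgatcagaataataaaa
Notch4: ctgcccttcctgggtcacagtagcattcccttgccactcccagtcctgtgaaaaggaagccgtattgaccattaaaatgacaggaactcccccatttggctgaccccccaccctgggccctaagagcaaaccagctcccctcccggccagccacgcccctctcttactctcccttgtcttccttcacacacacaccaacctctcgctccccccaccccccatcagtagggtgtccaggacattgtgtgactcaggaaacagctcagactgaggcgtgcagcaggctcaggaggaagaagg
Hes6: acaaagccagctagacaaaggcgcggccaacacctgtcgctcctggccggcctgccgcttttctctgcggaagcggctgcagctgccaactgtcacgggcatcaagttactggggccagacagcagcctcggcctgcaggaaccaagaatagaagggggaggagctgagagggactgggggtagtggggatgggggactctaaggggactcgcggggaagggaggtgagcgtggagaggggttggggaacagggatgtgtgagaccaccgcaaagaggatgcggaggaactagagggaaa
Lef1: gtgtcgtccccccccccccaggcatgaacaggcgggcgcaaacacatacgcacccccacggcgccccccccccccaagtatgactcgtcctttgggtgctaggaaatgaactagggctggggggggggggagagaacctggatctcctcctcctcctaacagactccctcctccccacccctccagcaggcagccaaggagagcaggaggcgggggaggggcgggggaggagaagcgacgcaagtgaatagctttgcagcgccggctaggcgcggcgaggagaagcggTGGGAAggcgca

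The Jag1 window held the TCF letters once, on the opposite strand at base 25 after the start, and no Rbpj letters. The Lef1 window held the Rbpj letters once, at base 39. Neither motif occurred in the windows of Notch4 and Hes6, which says only that these letters are absent there. Over the 32851 windows of all genes, 25.6% held TGGGAA and 16% held CTTTGA, against 20.0% and 8.89% of the 45 windows of members. Hes1 and Hey1 were not among the windows.

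Other genes of both pathways were counted from lists of machinery and target genes. Of 90 such genes tested, 3 rose, 4 fell and 83 did not pass, so that 7.78% were called, against 3.42% of all tested genes. These counts include Tnik and Ptk7, which passed the filter through the controls alone, and Neurl1a, which passed it through the induced cells alone. Nothing particular to the lists is drawn from these counts. The median log2 fold change of the 90 listed genes was -0.01, against 0.00 for all tested genes. In the Wnt machinery list, 1 of 41 rose, against 2.08% of all tested genes, and 2 fell, against 1.34%. Gsk3b, the kinase of the destruction complex, had 7027 and 6960 normalized reads in the induced cells, against 4995 and 4742 in the controls, and rose 1.44-fold (adjusted p = 0.0179). Gsk3b lies on chromosome 16, and among its 20 nearest tested genes the median log2 fold change was 0.55, beside its own 0.52.

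Apc2, a neural relative of the Apc scaffold, fell to 194 and 268 in the induced cells, against 624 and 543 in the controls (log2 fold change -1.35, SE 0.19, adjusted p = 0.0260). Tnik, a kinase known to activate TCF-dependent transcription, fell to 5.44 and 1.85 in the induced cells, against 81.7 and 55.8 in the controls, 18.9-fold lower by means (adjusted p = 0.0271). The values of Tnik stood for 5 and 2 reads in the induced cells and 65 and 53 in the controls, and it passed the filter through the controls alone (mean 0.111 CPM in the induced cells and 2.11 in the controls), so that its call and size support nothing further. Wls, which carries Wnt ligands to the cell surface and was the most abundant gene of the list by reads, had 13041 and 12724 in the induced cells, against 12829 and 12044 in the controls (adjusted p = 0.700). The exons of Apc2 overlap those of 2310011J03Rik.

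Among 11 tested Wnt target genes, 1 rose and 0 fell by limma, with 2 higher and 1 lower at an unadjusted p under 0.05, against 3.42% of all tested genes called and 19.1% at that unadjusted p. Wisp2, a matricellular protein gene, had 1109 and 1033 normalized reads in the induced cells, against 560 and 589 in the controls, and rose 1.87-fold (adjusted p = 0.0123). It passed under all 12 alternative settings. Its relative Wisp1 had 3419 and 3775 in the induced cells, against 3551 and 3039 in the controls, and Cd44 had 3762 and 3302 in the induced cells, against 3984 and 3714 in the controls (adjusted p = 0.534 and 0.487). Wisp1 and Cd44 thus overlapped between groups, whereas 4 of the 11 tested genes did not, against 51.3% of all tested genes. Besides Wisp2 these were Apcdd1 and Myc, both lower in the induced cells, and Fosl1, which was higher. Apcdd1, Myc and Fosl1 did not pass by limma (adjusted p = 0.0884, 0.316 and 0.227).

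Of 39 tested genes of the Notch machinery, 1 rose, against 2.08% of all tested genes, and 2 fell, against 1.34%. Poglut1, which adds glucose to the Notch extracellular domain, had 2335 and 2263 normalized reads in the induced cells, against 1494 and 1484 in the controls, and rose 1.54-fold (adjusted p = 0.0155). Poglut1 also lies on chromosome 16, where the median over its 20 nearest tested genes was 0.47 on the log2 scale, beside its own 0.63. The part of the chromosome's shift in Gsk3b and Poglut1 was not tested.

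Dlk1, a ligand relative that is known to inhibit Notch, fell to 56.5 and 85.3 in the induced cells, against 180 and 189 in the controls (log2 fold change -1.39, SE 0.25, adjusted p = 0.0476). Dtx3, a gene of the Deltex ubiquitin ligase family, fell to 1854 and 1804 in the induced cells, against 2407 and 2597 in the controls (log2 fold change -0.45, SE 0.07, adjusted p = 0.0389). The deacetylase gene Hdac1, abundant by reads, did not pass and had 7784 and 7837 in the induced cells, against 7752 and 7632 in the controls (adjusted p = 0.867). Gsk3b, Poglut1, Apc2, Tnik and Dlk1 each lost their call without at least 1 of the libraries, and Dtx3 lost its call whichever library was left out. The log2 fold change of Dtx3 stayed between -0.51 and -0.40 over 12 alternatives. On chromosome 10, which carries Apc2 and Dtx3, the median log2 fold change of 639 tested genes was -0.09, and 1 of the 20 nearest tested genes of Apc2 lay above 0.

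**Figure D5:**
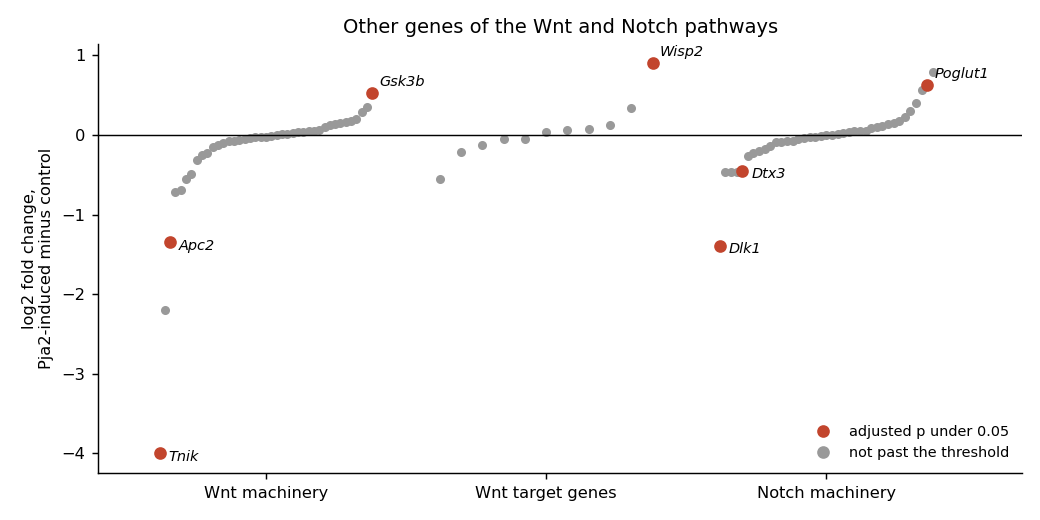
Log2 fold change, Pja2-induced minus control, of the tested genes of the 3 pathway lists, sorted within each list. The 7 named genes passed an adjusted p of 0.05: Gsk3b, Wisp2 and Poglut1 rose and Tnik, Apc2, Dlk1 and Dtx3 fell.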

How the data were processed

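RNA of 4 libraries was sequenced after Trizol extraction and TruSeq preparation, per the labels' protocols. HISAT and Cufflinks with build mm9 are named in the submitters' processing notes, with no version. Not given in the sources used here were the read counter and the scaling. The authors deposited log2 values: 2 to the value minus 1 gave whole multiples of 1 step per library for 100% of values (tolerance 0.01), so they are log2(normalized reads + 1), and whole reads and CPM were recovered. The pseudocount of 1 understates the change of low genes. Genes whose mean reached 1 CPM were fitted with limma 3.58.1 (R 4.3.3) with an intensity trend, on both groups with no covariate, two-sided. The fit was checked on simulated data. Nothing in the labels says that replicates are separate cultures, so that the p-values reflect only the spread between these libraries, which may be technical. Replicates differed by more than sampling noise.

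Exon lengths, overlaps and gene order come from GENCODE vM21 (GRCm38), matched by Ensembl ID for 24591 of 24689 genes and used for no coordinates. Members and lists were chosen with earlier results of these data known. Values per library are given for members past the threshold, with an unadjusted p under 0.05 or a log2 fold change beyond 0.5, for the 2 most abundant tested members of each role class, for the targets Lef1, Tcf7, Hes1, Hey1 and Heyl, and for listed genes past the threshold with up to 2 abundant others. Dkk2, Hes7, Notch1 and Sfrp4 were named after their values were seen. Alternatives changed the filter, test, scaling, pseudocount, moderation, replicate block and libraries. Intervals and read floors cover counting error only.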

Additional observations from a re-analysis of the deposited data

How the results depend on the processing

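Over 12 alternatives, 313 of 340 log2 fold changes of the 29 tested members kept their sign and their side of the threshold, and 17 changed sign, each for a member that was not called. Jag1 lost its call in 7 alternatives (adjusted p up to 0.0945) and Hes1 gained one with limma voom and with a pseudocount of 8 (adjusted p = 0.0380 and 0.0401), so that 1 member rose there. With no expression filter 100 genes rose and 59 fell, and 0 members and 0 other pathway genes fell. With moderation without a trend 64 rose and 52 fell, 0 members fell, and 1 other pathway gene rose and 0 fell. With the replicate block 157 genes rose and 104 fell, 0 members fell and 2 other pathway genes fell; same-numbered libraries share only a number (correlation of deviations -0.10). With the filter of 5 CPM 2 other pathway genes fell. Leaving out 1 library each gave 113 to 204 rising and 78 to 136 falling genes, 0 rising and 0 to 1 falling members, 5 to 7 higher and 2 to 6 lower members at an unadjusted p under 0.05, and 2 to 4 rising and 0 to 5 falling other pathway genes. Fewer samples leave fewer residual degrees of freedom, and otherwise the cause was not tested. At 25.8 to 35.3 reads per CPM, members under 1 CPM allow no test of moderate changes.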
